A study of Mus musculus with 8 samples.

Results

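Untreated mouse embryonic fibroblasts (MEFs) lacking *Btg1* were compared with untreated wild-type (WT) MEFs. The comparison used the 4 arrays of cells that had not been starved, 2 *Btg1*-/- and 2 WT, of the 8 arrays in the series, and the 11910 of 18132 rows whose mean log2 signal reached 3 in at least 1 of these groups. The methods of the study name the C57BL/6J strain for the *Btg1*-/- mice and state no strain for the WT MEFs. Primary MEFs, connective tissue cells that grow out of trypsinised embryos, were taken at day 13.5 of gestation and kept in DMEM with Glutamax, serum, antibiotics and b-mercaptoethanol. The other 4 arrays of the series come from cells of the same genotypes kept for 16 hours without glutamine, and they enter here for the estimate of the spread and as a second pair of arrays per genotype. The arrays of a group are called biological duplicates in the sample descriptions, no source used here names the embryos or litters behind them, and p-values measure only the spread between these samples.
The arrays were alike over the rows kept, with a correlation of 0.98 between the replicates of each genotype. Between *Btg1*-/- and WT arrays the correlation was 0.968 to 0.981. The arrays stood apart in 2 ways. *Btg1*-/- replicate 1 carried more macrophage transcripts than the other arrays, and WT replicate 2 alone carried Y-linked transcripts.
BTG1 belongs to the BTG/TOB family of anti-proliferative proteins. Members of the family bind the deadenylase subunits of the CCR4-NOT complex, which shortens the poly(A) tails of mRNAs, and BTG1 also binds the arginine methyltransferase PRMT1. MEF cultures are mixtures. They hold fibroblasts from every region of the embryo, which keep the HOX code of their origin in culture, and a varying share of blood-derived cells such as macrophages.
The *Btg1* transcript itself measured 9.36 and 9.16 on the log2 scale in *Btg1*-/- MEFs, against 11.17 and 11.23 in WT MEFs. Both knockout arrays lay far below both WT arrays. The difference was -1.94 (standard error 0.10, adjusted p = 6.61e-05 from limma), a 3.83-fold lower signal. Signal remained in the knockout cells. No source used here states whether the probe lies in the sequence that the knockout removes. Of the close relatives, *Btg3* measured 5.68 and 6.16 in *Btg1*-/- MEFs and 6.31 and 6.36 in WT MEFs, *Tob2* differed by -0.27 and *Tob1* by 0.09. None of these 3 passed an adjusted p of 0.05 from limma. *Btg2* did not reach 3 on any of the 4 arrays, where its highest value was 2.62.
No gene of the partners of BTG1 was called. Of 7 measured protein arginine methyltransferases, 4 had both *Btg1*-/- arrays below both WT arrays and 1 above, where 26.2% and 23.3% of all rows did, with 4 at an unadjusted p under 0.05 from limma and a median difference of -0.26. *Prmt1* measured 12.90 and 13.07 in *Btg1*-/- MEFs and 13.38 and 13.22 in WT MEFs, a difference of -0.32 (adjusted p = 0.137 from limma). *Prmt5*, which makes symmetric dimethylarginine, differed by -0.35 (adjusted p = 0.159 from limma). Among 14 measured genes of the CCR4-NOT and PAN deadenylase complexes none was called, with a median difference of -0.10 against -0.02 over all rows kept, and limma gave an unadjusted p under 0.05 for 1 of them, the deadenylase subunit *Cnot8*. *Atf4*, the stress regulator that the study set out to follow, measured 11.70 and 11.70 in *Btg1*-/- MEFs and 11.73 and 11.53 in WT MEFs, so that the groups overlapped.
Genes near the *Btg1* locus were read separately. Of the 15 annotated genes on each side, 16 were measured and none was called, with 3 at an unadjusted p under 0.05 from limma. *Poc1b*, a centriole gene, measured 7.89 and 8.21 in *Btg1*-/- MEFs, against 8.77 and 8.55 in WT MEFs. *Mrpl42*, a mitochondrial ribosomal protein gene, differed by -0.35 and *Nudt4* by 0.30. The median of the 16 was -0.05.
Over all 11910 rows, 48 rose and 34 fell in *Btg1*-/- MEFs (limma, adjusted p under 0.05), which is 0.403% and 0.285% of the rows tested. At an unadjusted p under 0.05 there were 1078 higher and 1095 lower rows, 9.05% and 9.19%. Both knockout arrays lay above both WT arrays for 23.3% of all rows and below them for 26.2%, and these shares are the background for every count of non-overlapping genes that follows. The 82 calls depend on which arrays are used. *Btg1* was the 1 gene that kept its call when each of the 4 untreated arrays was left out in turn, and the number of calls was 2 without WT replicate 1, 1 without WT replicate 2, 3 without *Btg1*-/- replicate 1 and 521 without *Btg1*-/- replicate 2. A fit on the 4 untreated arrays alone called *Btg1* and no other gene.
The study set a 3-fold rule for starved against untreated cells of each genotype. Applied here to the untreated group means without a test, it gave 128 rows higher in *Btg1*-/- MEFs (1.07%) and 48 lower (0.403%). Most of the higher rows followed 1 array, since 115 of the 128 were higher on *Btg1*-/- replicate 1 than on replicate 2, and 94 of them by at least 1 on the log2 scale. Requiring each knockout array to lie 3-fold from each WT array left 14 higher and 13 lower.

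**Figure D1:**
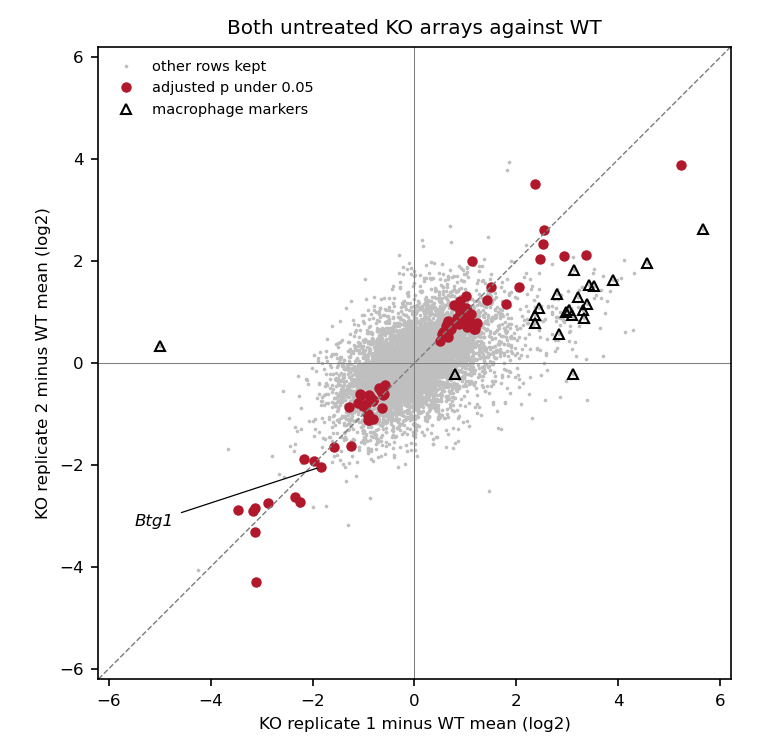
Difference from the WT mean on *Btg1*-/- replicate 1 (x axis, log2) and *Btg1*-/- replicate 2 (y axis, log2) for the 11910 rows kept, with the 82 called rows in red, macrophage markers as triangles and the line of equal difference dashed. The called rows lie along the line, and most macrophage markers lie below it, higher on replicate 1.

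The called genes with the widest gaps had varied roles, and they are described first on the higher side. Rows without a single current gene name are not described further, among them KLRA33, at 5.81 and 6.96 in *Btg1*-/- MEFs and 3.77 and 3.11 in WT MEFs, and LOC100044702, at 3.06 and 2.88 in *Btg1*-/- MEFs and 6.44 and 5.96 in WT MEFs. *Ifi202b*, an interferon-inducible gene of the p200 family, measured 7.19 and 5.84 in *Btg1*-/- MEFs and 2.27 and 1.65 in WT MEFs. The WT values lie under the level of 3, so the difference is given as at least 11.4-fold (adjusted p = 0.0156 from limma). *Gdf10*, a secreted relative of the BMPs, measured 6.77 and 6.84 in *Btg1*-/- MEFs, against 4.07 and 4.38 in WT MEFs (difference 2.58, standard error 0.32, adjusted p = 0.016 from limma). *Pla2g7*, the secreted phospholipase that inactivates platelet-activating factor, measured 7.99 and 7.16 in knockout cells and 5.22 and 4.90 in WT cells.
The groups overlapped for none of these 3, which the choice by gap required. *Tbx1*, a T-box factor of the pharyngeal region, measured 6.75 and 6.33 in *Btg1*-/- MEFs and 4.11 and 4.47 in WT MEFs (difference 2.25, adjusted p = 0.0168 from limma). *Dner*, a Notch ligand of neurons, was tight within the groups, at 8.94 and 8.94 against 7.45 and 7.44 in WT cells (adjusted p = 0.016 from limma). *Gpx3*, the extracellular glutathione peroxidase, rose by 1.48, and *Ccdc3*, a secreted protein gene, by 2.43. *AA467197* rose by 2.75, with 7.71 on *Btg1*-/- replicate 1 and 6.47 on replicate 2. *Erdr1*, a gene at the end of the X chromosome, rose by 1.56.
The lower side held secreted proteins, homeobox factors and other genes. *Msx1*, a homeobox factor of limb buds and the face, measured 3.56 and 4.14 in *Btg1*-/- MEFs and 6.47 and 7.59 in WT MEFs (difference -3.18, standard error 0.42, adjusted p = 0.018 from limma). *Meox2*, a homeobox factor of somites and limb muscle, measured 4.62 and 4.14 in knockout cells, against 6.92 and 6.80 in WT cells. The groups lay at least 2.18 apart for *Meox2*. *Angptl7*, a secreted angiopoietin-like protein gene, measured 2.57 and 1.39 in *Btg1*-/- MEFs and 5.62 and 5.76 in WT MEFs, which is at least 6.44-fold lower (adjusted p = 0.016 from limma). *Tnn*, encoding the matrix protein tenascin-N, was at least 3.98-fold lower, and its WT values of 4.21 and 5.77 were far apart. *S100a7a* was at least 4.77-fold lower, and *Cdc25b*, the phosphatase that starts mitosis, at least 3.56-fold lower.
*Bcl11a*, a zinc finger repressor of blood and nerve cells, fell by 1.61 on the log2 scale and *Alg13*, an X-linked gene of N-glycan synthesis, by 2.03. *Tmem254a* fell by 1.44, with 9.04 and 8.66 in *Btg1*-/- MEFs and 10.58 and 10.00 in WT MEFs. With 1 untreated array left out, the adjusted p from limma reached 0.0731 at most for *Ifi202b*, 0.0946 for *Msx1*, 0.127 for *Tbx1*, 0.119 for *Gdf10*, *Dner* and *Angptl7* and 0.223 for *Bcl11a* and *Meox2*.

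**Figure D2:**
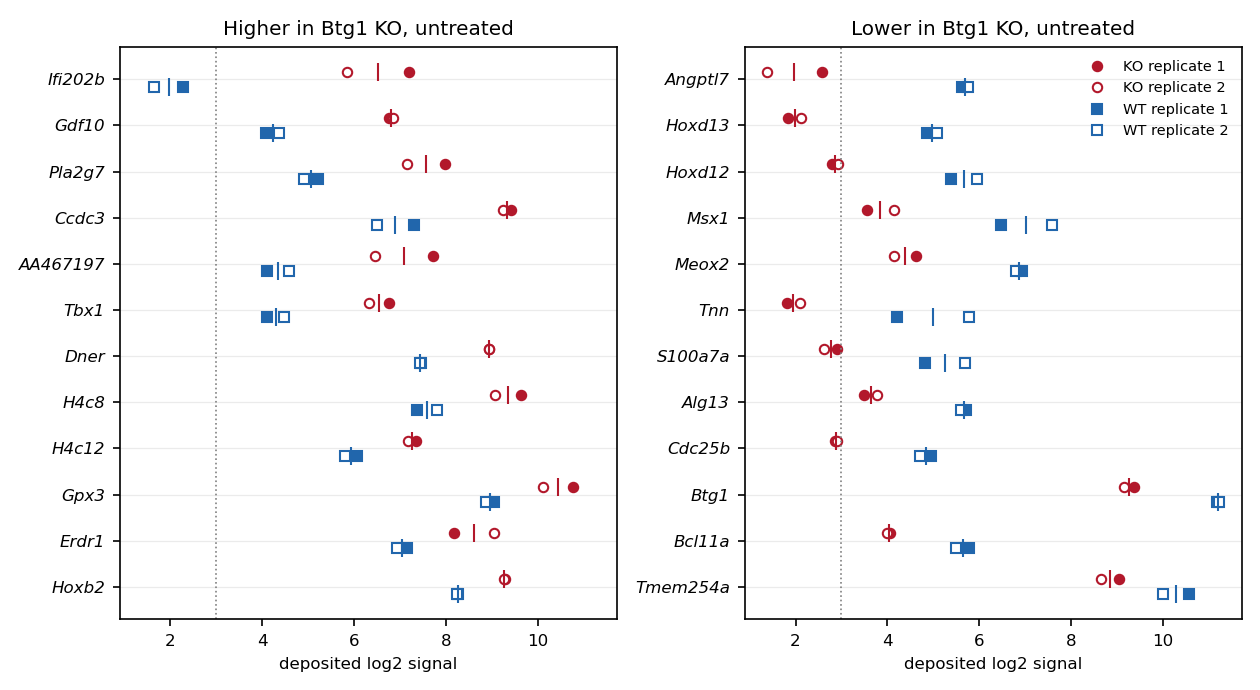
Deposited log2 signal of the 12 called genes with the widest gap between the groups among rows with a single current gene name, on the higher side (left) and the lower side (right), *Btg1*-/- arrays as red circles above WT arrays as blue squares. Filled symbols are replicate 1, open symbols replicate 2, ticks the group means, and the dotted line is the level of 3. The choice by gap means that no gene shown has overlapping groups.

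The HOX genes, which give cells their place along the body axis and the limb, did not move one way. Of 31 measured, 14 had both *Btg1*-/- arrays above both WT arrays and 7 below, with 4 called higher and 2 called lower. In the HoxB cluster 7 of 9 measured genes had both knockout arrays above, with a median difference of 0.88, and 4 of them were called. *Hoxb2* measured 9.28 and 9.27 in *Btg1*-/- MEFs and 8.27 and 8.24 in WT MEFs (difference 1.02, standard error 0.12, adjusted p = 0.016 from limma). *Hoxb4* measured 8.65 and 8.71 in knockout cells, against 7.54 and 7.72 in WT cells (adjusted p = 0.0267 from limma). *Hoxb5* and *Hoxb7* rose by 0.94 and 0.98.
The HoxD cluster split along its length. *Hoxd3*, *Hoxd4* and *Hoxd8*, at the 3′ end of the cluster, had both *Btg1*-/- arrays above both WT arrays, with differences of 1.92, 0.89 and 0.61, and none of the 3 was called. All 5 measured genes from *Hoxd9* to *Hoxd13*, at the 5′ end that patterns the distal limb and the posterior trunk, had both knockout arrays below. *Hoxd13* measured 1.84 and 2.12 in *Btg1*-/- MEFs and 4.86 and 5.07 in WT MEFs, at least 3.91-fold lower (adjusted p = 0.0168 from limma). *Hoxd12* measured 2.80 and 2.93 in knockout cells, against 5.39 and 5.95 in WT cells, at least 6.37-fold lower (adjusted p = 0.0186 from limma).
In the HoxA cluster the differences ran the same way by position without a call, 1.02 for *Hoxa2* and -1.19 for *Hoxa11*, for which the groups overlapped. *Hoxa10*, with a knockout mean under 3, was at least 1.52-fold lower and not called. In the HoxC cluster *Hoxc6* alone did not overlap, with a difference of 0.69. Without 1 of the untreated arrays the adjusted p from limma was at most 0.119 for *Hoxb2*, *Hoxd12* and *Hoxd13* and 0.186 for *Hoxb4*. In the starved arrays *Hoxb2* differed by 1.06 (adjusted p = 0.00695 from limma) and *Hoxd12* by -2.03 (adjusted p = 0.0345 from limma). *Hoxd13* measured 3.30 and 2.38 in starved *Btg1*-/- MEFs, against 4.59 and 4.56 in starved WT MEFs (adjusted p = 0.0533 from limma).

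**Figure D3:**
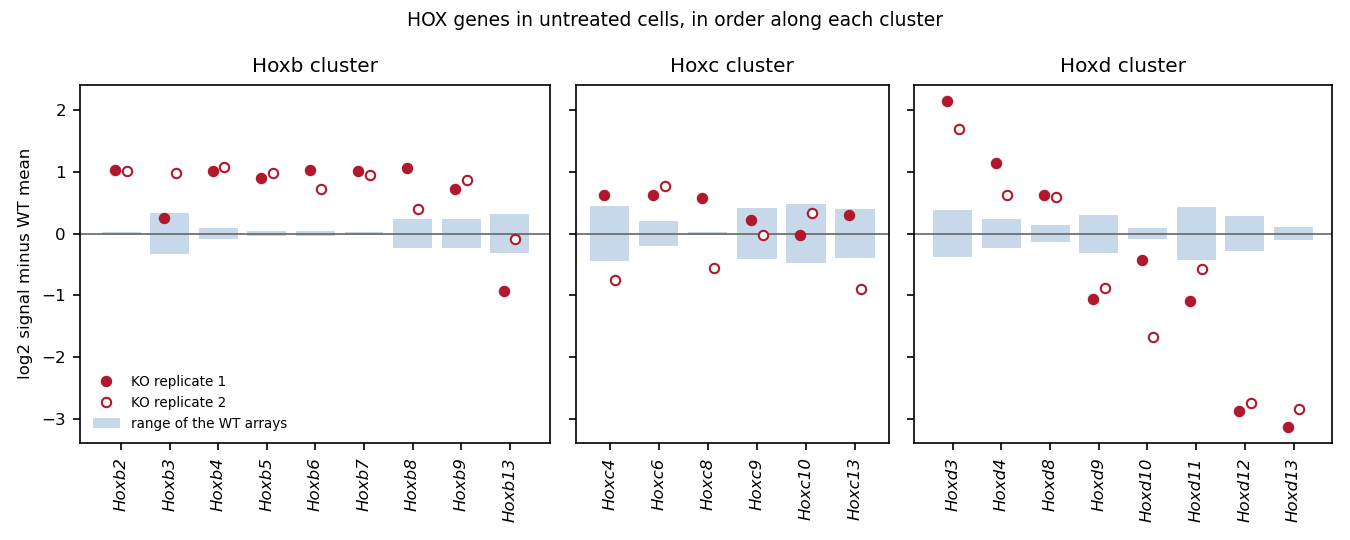
Difference from the WT mean (y axis, log2) of the measured genes in order along the HoxB, HoxC and HoxD clusters (x axis), with *Btg1*-/- replicate 1 as filled and replicate 2 as open circles and blue bars for the range of the WT arrays. In the HoxD cluster both knockout arrays lie above WT at *Hoxd3* (2.15 and 1.70) and below it at *Hoxd13*, where the knockout signals were under 3.

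Other positional regulators differed in both directions. Of 43 measured members of a list of limb, trunk and face factors, which does not hold *Meox2* or *Tbx1*, *Msx1* was the 1 called, 13 had both knockout arrays above and 10 below, and the median was 0.17. On the lower side *Tbx18* differed by -1.55, *Barx1* by -1.27, and *Lmx1b*, the factor of the dorsal limb, was at least 1.70-fold lower. On the higher side *Meis1*, a cofactor of HOX proteins, differed by 0.61, *En1* by 0.76 and *Foxd1* by 0.97. None of these 6 passed an adjusted p of 0.05 from limma.
Genes of cell division lay lower on both *Btg1*-/- arrays, most of them without passing the test. The paper states that growth did not differ significantly between the genotypes under normal conditions, with the data not shown. The transcripts of mitosis are made late in the cycle from promoters that often hold CCAAT boxes and a CHR element, and those of DNA replication earlier, by E2F factors. Of 23 measured genes of a mitosis list, which does not hold *Cdc25b*, 21 had both knockout arrays below both WT arrays, 18 had an unadjusted p under 0.05 and 1 was called. Of 25 genes of DNA replication, 22 lay below, 17 had an unadjusted p under 0.05 and none was called by limma. The median differences were -0.74 and -0.62, against -0.02 over all rows. Macrophage markers moved with these lists, in the other direction and likewise most on *Btg1*-/- replicate 1, by medians of 3.12 and 1.05. Their part in the lower values was not tested beyond a fit with their mean as a covariate, in which *Cenpa* had an adjusted p of 0.34 from limma.
In choosing promoters to print, members of these lists without a listed promoter, or on a chromosome that was set aside, were passed over. The promoters of the 3 mitosis genes and the 2 replication genes of smallest p among the rest are shown for these letters. They run from 250 bases before to 50 after the RefSeq start (GRCm38.p6), with matches of either strand in capitals. The CHR element was searched as TTTGAA, the CCAAT box by its own letters, and the E2F site as any of the words TTTCCCGC, TTTCGCGC, TTTGCCGC and TTTGGCGC.
Cenpa (chr5:30666636-30666935, plus strand): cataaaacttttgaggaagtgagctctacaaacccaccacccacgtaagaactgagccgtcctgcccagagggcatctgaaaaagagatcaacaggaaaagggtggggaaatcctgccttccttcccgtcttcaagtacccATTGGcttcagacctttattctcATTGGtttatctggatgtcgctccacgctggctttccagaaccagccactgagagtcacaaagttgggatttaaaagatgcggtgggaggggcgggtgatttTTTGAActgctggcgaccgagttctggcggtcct
Plk1 (chr7:122159185-122159484, plus strand): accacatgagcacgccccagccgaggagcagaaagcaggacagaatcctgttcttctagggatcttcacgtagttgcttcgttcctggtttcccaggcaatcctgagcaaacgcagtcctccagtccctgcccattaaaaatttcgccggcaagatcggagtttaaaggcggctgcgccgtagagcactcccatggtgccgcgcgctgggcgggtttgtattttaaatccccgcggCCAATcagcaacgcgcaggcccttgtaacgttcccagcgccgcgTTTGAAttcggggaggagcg
Cdc20 (chr4:118437294-118437593, minus strand): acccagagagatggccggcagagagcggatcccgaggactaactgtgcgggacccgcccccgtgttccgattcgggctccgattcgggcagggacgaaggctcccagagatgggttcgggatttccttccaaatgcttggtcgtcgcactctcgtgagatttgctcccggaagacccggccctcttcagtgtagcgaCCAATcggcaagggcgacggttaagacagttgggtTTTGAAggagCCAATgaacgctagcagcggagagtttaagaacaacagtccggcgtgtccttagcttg
Rrm2 (chr12:24708004-24708303, plus strand): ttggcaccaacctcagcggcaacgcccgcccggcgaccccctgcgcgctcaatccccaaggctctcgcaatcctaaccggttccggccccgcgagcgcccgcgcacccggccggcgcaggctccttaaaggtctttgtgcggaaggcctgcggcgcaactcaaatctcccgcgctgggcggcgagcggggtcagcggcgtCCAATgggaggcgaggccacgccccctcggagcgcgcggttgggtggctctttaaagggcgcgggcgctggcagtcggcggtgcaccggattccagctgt
Cdt1 (chr8:122567765-122568064, plus strand): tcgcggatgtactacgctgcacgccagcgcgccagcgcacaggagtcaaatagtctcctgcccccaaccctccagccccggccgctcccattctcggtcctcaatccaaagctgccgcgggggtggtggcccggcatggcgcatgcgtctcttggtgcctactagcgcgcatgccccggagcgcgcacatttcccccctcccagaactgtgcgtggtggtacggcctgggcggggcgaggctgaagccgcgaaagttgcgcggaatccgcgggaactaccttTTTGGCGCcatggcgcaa
Each of the 3 mitosis promoters holds CHR letters, between 18 bases before and 30 after the start, and at least 1 CCAAT box. The *Rrm2* promoter holds 1 CCAAT box and the *Cdt1* promoter 1 E2F word. CHR letters occur in 17 of 20 mitosis genes with a listed promoter (85%), in 3 of 22 replication genes (13.6%) in 15.2% of the genes of the rows kept, and in 20.2% of all 27025 genes with one. E2F letters occur in 1 of the 20, in 9 of the 22 (40.9%), in 4.23% of the rows kept and in 2.6% of all. CCAAT boxes occur in 16 of the 20, in 15 of the 22, in 42.8% of the rows kept and in 41.1% of all. Members without the letters differed as much, with a median of -0.79 for the 3 mitosis genes without CHR letters and -0.73 for the 17 with them. The letters were chosen after the lists had been seen to move, and a match is a description of the promoter.
*Cenpa*, the histone of the centromere, was the called gene, at 11.97 and 12.43 in *Btg1*-/- MEFs and 13.00 and 13.09 in WT MEFs (difference -0.84, standard error 0.15, adjusted p = 0.0434 from limma). Its adjusted p from limma was 0.174 without *Btg1*-/- replicate 1, 0.204 without WT replicate 1 and 0.186 without WT replicate 2. *Cdc20*, which activates the anaphase-promoting complex, measured 9.49 and 10.03 in knockout cells and 10.67 and 10.71 in WT cells. The kinase gene *Plk1* measured 10.62 and 11.03 in knockout cells, against 11.57 and 11.55 in WT cells. The groups did not overlap for either.
Among the replication genes, *Rrm2*, a subunit of ribonucleotide reductase, measured 8.96 and 9.45 in *Btg1*-/- MEFs and 9.87 and 10.10 in WT MEFs (difference -0.78, adjusted p = 0.0806 from limma). *Cdt1*, which loads the MCM helicase, measured 9.45 and 9.71 in knockout cells and 10.21 and 10.29 in WT cells (adjusted p = 0.0806 from limma). *Mcm10* differed by -1.17 and *Pcna*, the sliding clamp, by -0.93. Replicate 1 of the knockout lay lower than replicate 2, with median differences from WT of -0.98 and -0.45 for mitosis and of -0.81 and -0.41 for replication.
Targets of p53 lay on the other side. Of 18 measured p53 targets, 13 had both *Btg1*-/- arrays above both WT arrays and none lay below, 9 had an unadjusted p under 0.05, none was called by limma, and the median difference was 0.33. *Cdkn1a*, the CDK inhibitor p21, measured 12.01 and 11.82 in *Btg1*-/- MEFs and 11.26 and 11.36 in WT MEFs (difference 0.61, adjusted p = 0.0594 from limma). *Trp53inp1* measured 9.67 and 9.18 in knockout cells, against 8.58 and 8.58 in WT cells (adjusted p = 0.0543 from limma). *Pmaip1*, the BH3-only protein NOXA, differed by 0.72 (adjusted p = 0.0633 from limma). Unlike the cell cycle lists, this list had like medians on both knockout arrays, 0.36 and 0.32. *Cdkn1a*, *Trp53inp1* and *Pmaip1* were each higher on replicate 1 of the knockout. With the mean of the macrophage markers as a covariate, their adjusted p from limma was 0.431, 0.394 and 0.405. In starved cells the median of the list was 0.10, with 6 above and 3 below. The list of G1 cyclins and CDK inhibitors showed no such shift, with 6 of 17 above, 6 below and a median of -0.04. *Bax* and *Tnfrsf10b* overlapped between the groups, with differences of 0.00 and -0.12.
The genes of the lysosome and of autophagy, which take apart and recycle cell contents, were higher in 18 of 23 cases with no overlap, and none lay below. No member was called by limma, 13 had an unadjusted p under 0.05, and the median difference was 0.42. *Lamp2*, a protein of the lysosomal membrane, measured 11.80 and 11.52 in *Btg1*-/- MEFs and 11.05 and 11.17 in WT MEFs (difference 0.55, adjusted p = 0.0752 from limma). *Gabarapl1*, an ATG8 protein of autophagosomes, measured 10.31 and 10.05 in knockout cells, against 9.71 and 9.30 in WT cells. Macrophages are rich in lysosomes, and the macrophage markers described further on moved in the same direction. Their part in the lysosomal differences was not tested beyond the fit with their mean as a covariate. In that fit *Lamp2* had an adjusted p of 0.355 and *Gabarapl1* of 0.595 from limma.

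**Figure D4:**
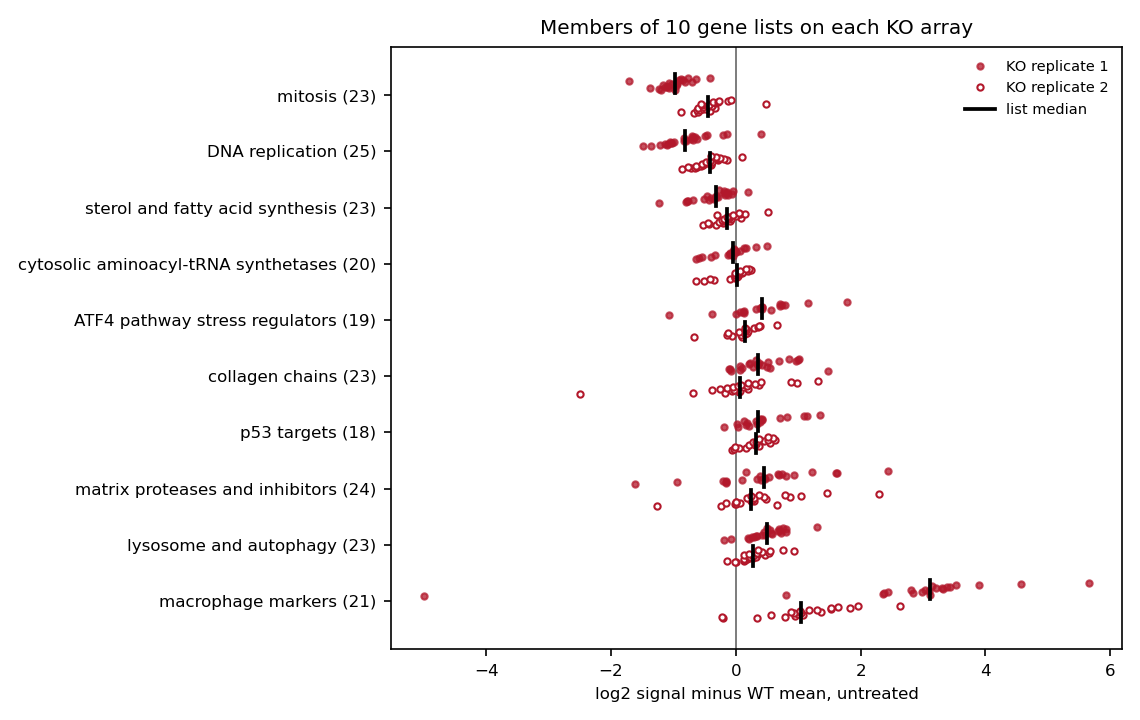
Difference from the WT mean (x axis, log2) of each measured member of 10 gene lists on *Btg1*-/- replicate 1 (filled) and replicate 2 (open), with list medians as black lines and the number measured in parentheses. The medians of mitosis (-0.98 and -0.45) and DNA replication (-0.81 and -0.41) lie left of 0 on both arrays, and those of macrophage markers (3.12 and 1.05) right of it.

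Genes of the ATF4 pathway held no call, and those of amino acid supply lay on both sides of WT. Of 19 measured ATF4 pathway regulators, 5 had both *Btg1*-/- arrays above (26.3%) and 1 below (5.26%), where 23.3% and 26.2% of all rows did. None was called by limma with 5 at an unadjusted p under 0.05, and the median was 0.26. The difference was positive for 15 and negative for 4, where 5676 of all 11910 rows were positive. The list medians were 0.41 on *Btg1*-/- replicate 1 and 0.15 on replicate 2. Without WT replicate 1 the median of the list was 0.49, and without WT replicate 2 it was 0.11. In starved cells the median was -0.12, with 2 above and 8 below. *Nupr1* measured 12.34 and 11.96 in knockout cells and 11.76 and 11.44 in WT cells (difference 0.55, adjusted p = 0.0993 from limma). *Stc2*, a secreted glycoprotein gene, ran the other way, at 4.83 and 5.24 against 6.18 and 5.64 in WT cells. The 20 tRNA synthetases of the cytosol had a median of -0.02, with 4 above and 4 below. *Dnajb9*, a co-chaperone of the endoplasmic reticulum, differed by 0.61 (adjusted p = 0.0699 from limma), and the 16 measured chaperone genes had a median of -0.02.
The matrix lists held 3 called genes, all higher, and *Tnn*, which fell, is in none of these lists. *Col7a1*, the collagen of anchoring fibrils, measured 8.74 and 9.03 in *Btg1*-/- MEFs and 7.82 and 7.62 in WT MEFs (difference 1.16, standard error 0.20, adjusted p = 0.0408 from limma). *Fbln2*, an elastic fibre protein, rose by 0.67 and *Nid1*, a basement membrane linker, by 0.74. Among 23 collagen chains 8 had both knockout arrays above and 1 below, with a median of 0.15. The basement membrane chains *Col4a1*, *Col4a2* and *Col4a5* were among the 8, with differences of 0.45, 0.50 and 0.87 and no call. Of 24 matrix proteases and their inhibitors, 11 lay above and 2 below, with a median of 0.36, and *Timp3*, an inhibitor of metalloproteinases, measured 11.47 and 11.05 in knockout cells and 10.31 and 10.21 in WT cells (adjusted p = 0.0674 from limma). With 1 untreated array left out the adjusted p from limma reached 0.178 for *Col7a1*, 0.199 for *Fbln2* and 0.206 for *Nid1*.
Ligands and receptors were called singly. *Fzd5*, a receptor for WNT proteins, measured 8.84 and 8.61 in *Btg1*-/- MEFs and 9.60 and 9.87 in WT MEFs (difference -1.01, standard error 0.15, adjusted p = 0.0262 from limma). With 1 untreated array left out its adjusted p from limma reached 0.148. It was the 1 called gene of 26 measured in the WNT list, where 6 lay above and 5 below. *Fgf5* differed by -2.53 (adjusted p = 0.055 from limma) and *Cxcl1*, a chemokine for neutrophils, by -1.83 (adjusted p = 0.0609 from limma). *Igfbp3* and *Igfbp4*, which bind insulin-like growth factors, differed by 1.39 and by -1.02, and neither passed the threshold.
Histone rows were looked at after their values had been seen, because 7 of the 48 higher rows were histones. Of 13 measured H2B genes, 9 had both *Btg1*-/- arrays above both WT arrays and 5 were called, with a median difference of 0.88. Of 15 H2A genes, 9 lay below and 5 above, none was called by limma, and the median was -0.59. *H2bc9*, listed under its older name Hist1h2bh, measured 11.14 and 10.64 in *Btg1*-/- MEFs and 9.99 and 9.98 in WT MEFs, whereas *H2ac11*, formerly Hist1h2ag, differed by -1.16 (adjusted p = 0.0511 from limma). *H4c8* rose by 1.77 and *H4c12* by 1.33. Copies of each histone are nearly identical, so a probe can read several of them and the rows of a class are not independent. Among the variant histones, *H2az1* fell by 0.60 on the log2 scale.
Macrophage transcripts separated the knockout cultures from each other as well as from WT. Of 21 measured markers, 18 had both *Btg1*-/- arrays above both WT arrays and 17 had an unadjusted p under 0.05, and none was called by limma. The median differences from WT were 3.12 on *Btg1*-/- replicate 1 and 1.05 on replicate 2. *Fcgr3*, an Fc receptor, measured 9.35 and 6.33 in *Btg1*-/- MEFs, against 4.07 and 3.33 in WT MEFs. *C1qc*, a chain of complement C1q, measured 10.15 and 7.89 in knockout cells and 6.37 and 6.14 in WT cells. *Csf1r*, the receptor that macrophages need to survive, measured 6.56 and 5.12 in knockout cells, against 4.19 and 3.34 in WT cells.
In these 3 genes as in most of the list, replicate 1 was highest, replicate 2 next and the WT arrays lowest. At most 3 of the 21 markers lay at or under 3 on any of the 4 arrays. The summed linear signal of the 21 was 30500 and 10253 in *Btg1*-/- MEFs and 5160 and 4842 in WT MEFs. More cells of a type and more RNA per cell cannot be told apart in bulk samples. *Fcer1g* went against the list, at 2.35 on *Btg1*-/- replicate 1 but 7.69 on replicate 2 and 7.43 and 7.26 in WT MEFs, and the starved *Btg1*-/- arrays repeated this with 2.13 and 7.43. The genes that stood out most on *Btg1*-/- replicate 1 alone were *Ly86*, *Slco2b1*, *Aif1*, *Pld4*, *Fcgr3* and *Fermt3*, by 2.96 to 3.61 above the next untreated array. Those of replicate 2 were led by *Gm5105* and *Syt13*, by 2.26 and 2.00. With the mean of the markers as a covariate, limma called 9 rows higher and 11 lower, and 7 of the 82 genes were among them.

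**Figure D5:**
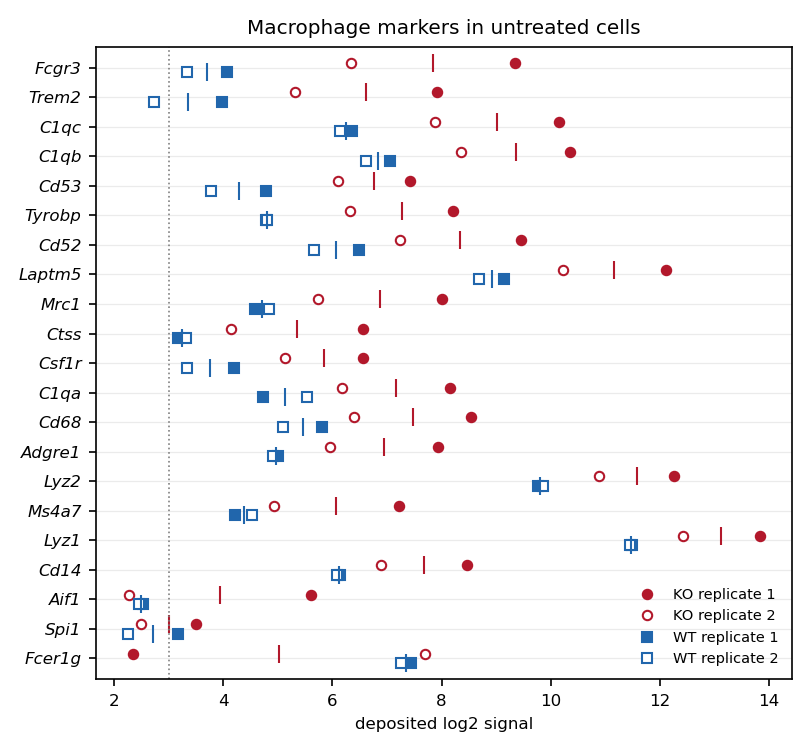
Deposited log2 signal (x axis) of 21 macrophage markers in *Btg1*-/- arrays (red circles, upper) and WT arrays (blue squares, lower), filled for replicate 1 and open for replicate 2, with ticks at the group means and a dotted line at 3. In 18 markers both knockout arrays lie above both WT arrays, and *Fcer1g* is low on *Btg1*-/- replicate 1 alone.

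Other cell types were read from their markers. The defining fibroblast genes were high in all 4 untreated arrays, with 12 measured markers summing to 39854 and 44238 in *Btg1*-/- MEFs and 35882 and 39325 in WT MEFs. Skeletal muscle markers summed to 3348 and 4639 in *Btg1*-/- MEFs, against 1604 and 1937 in WT MEFs. Most of each sum was *Acta1*, skeletal actin, at 11.29 and 11.92 against 9.77 and 10.27 in WT cells (adjusted p = 0.0587 from limma). Of the 12 measured muscle markers, 5 had both knockout arrays above (41.7%) and 1 below (8.33%), where 23.3% and 26.2% of all rows did. The muscle regulator *Myog* measured 3.17 and 3.52 in knockout cells and 3.66 and 3.90 in WT cells. Y-linked transcripts were present on WT replicate 2 alone, where *Eif2s3y* measured 9.81 against 2.05 and 2.23 in *Btg1*-/- MEFs and 2.79 on WT replicate 1, and *Xist* was low there at 2.87 against 7.08 to 7.29 elsewhere. The part of cell makeup and of sex in the calls was not tested beyond the covariate and the left-out arrays.
The genotypes were also measured in the starved arrays, which did not enter the differences but may not be independent of them. The starved arrays did enter the spread behind the calls. Called rows were therefore partly chosen for close starved replicates, and the shares of all rows are not a like background. Y-linked *Eif2s3y* was high on WT replicate 2 alone at both times, at 9.81 untreated and 9.49 starved. Deviations of same-numbered untreated and starved arrays from their group means correlated over genes with r = 0.264 in *Btg1*-/- MEFs and 0.125 in WT MEFs. Of the 48 rows higher in untreated *Btg1*-/- MEFs, 45 had both starved knockout arrays above both starved WT arrays, where 22.1% of all rows did. Of the 34 lower rows, 28 lay below in starved cells, where 27.4% of all rows did, and 3 lay above. *Ifi202b* measured at least 6.82 on both starved *Btg1*-/- arrays and at most 2.39 on both starved WT arrays (adjusted p = 0.00365 from limma). *Angptl7* was under 3 on all 4 starved arrays, so that no difference could be read there. *AA467197* differed by 0.03, and *Cdc25b* measured 3.66 and 3.35 in starved knockout cells, against 2.77 and 3.17 in starved WT cells. A test of whether the genotype difference itself changed with starvation called no row in limma, with 764 at an unadjusted p under 0.05. No source used here says whether starved and untreated arrays share cultures.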

How the data were processed

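RNA of 8 MEF samples was measured on Illumina bead arrays, of which the 4 untreated ones are described. The authors extracted the data (GenomeStudio 2011.1 in the submitters' processing notes), normalized them with the RMA method in ArrayStar and deposited log2 values, 1 per named row and array. RMA fits arrays to 1 distribution, so that overall shifts cannot be seen. A second table of group means and fold ratios made by the authors served only to check the groups, and its ratios were not used. Bead counts and detection calls were not used here, and the number of arrays limits the precision.
Rows whose untreated group means reached 3 at least once were tested with limma 3.58.1 in R 4.3.3, with 1 mean per group over 8 arrays, an intensity trend, and 4 residual and 5.28 prior degrees of freedom. Two-sided p-values were adjusted over the 11910 rows (Benjamini-Hochberg). A mean under 3 gives a bound against 3. Names come from RefSeq GRCm38.p6, with 14305 rows under a current symbol and 2660 under a synonym. The fit was tested on simulated data.
The members and gene lists were chosen with earlier results of these data known. Named genes are *Btg1*, *Btg2*, *Atf4* and *Prmt1*, up to 12 called genes per direction with the widest gap, up to 4 called members of a list or the 2 of smallest p where none was called, up to 6 neighbours of *Btg1*, and up to 6 genes high on each knockout array alone. Other genes were named after their values were seen. Alternatives were other filters, scalings, variance models, blocks and tests, the macrophage covariate and each array left out. Some measured genes are not reported here.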

Additional observations from a re-analysis of the deposited data

How the results depend on the processing

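The direction of the *Btg1* difference held under all alternatives, between -2.04 and -1.84. Its adjusted p passed 0.05 except without the intensity trend in limma (-1.94, 0.0634) and in a Student's t-test after adjustment (-1.94, 0.522). The methods of the study name Student's t-tests and state none for the arrays. The counts of called genes did not hold. Against 48 higher and 34 lower, there were 0 and 1 from the untreated arrays only. A mean of 5 or more in a group gave 79 and 62. There were 0 and 0 without the intensity trend and 9 and 11 with macrophage markers as a covariate. Requiring a difference of at least 1 left 19 and 16. The Student's t-test gave 520 and 574 unadjusted, and 0 and 0 after adjustment. With 1 array left out they ran from 0 to 294 higher and from 1 to 227 lower. The cause was not tested. The replicate numbers mark no shared litter or batch in the labels, and the same-numbered untreated arrays deviated together with r = 0.115 over genes in 2 pairs, against 0.264 and 0.125 between untreated and starved arrays of *Btg1*-/- and WT MEFs. With the number as a replicate block limma called 261 higher and 162 lower, all 82 genes among them. Quantile normalization, median centring, no filter, a mean of 3 in both groups and a random block for culture kept both counts within 1.5 times.
At 3-fold, 128 higher and 48 lower rows became 14 and 13 with each array 3-fold apart, and the lower count was 23 with a mean of 3 in both groups. With 1 array left out they ran from 97 to 269 (highest without *Btg1*-/- replicate 2) and from 74 to 103.
Signs turned for genes that were not called. With the macrophage covariate *Atf4* was at -0.0002, *Slc1a4* at -0.024, *Dcn* at -0.40, *Ccl9* at -0.30, *Pdgfrb* at -0.058, *Gata1* at -0.44, *Cep83* at 0.11, *Ly86* at -1.88, *Slco2b1* at -1.47, *Aif1* at -1.29, *Pld4* at -1.43 and *Fermt3* at -1.24. With 1 array left out, *Atf4* ran from -0.027 (without WT replicate 2) to 0.18, *Aif1* from -0.22 (without *Btg1*-/- replicate 1) to 3.12, and *Fam124b* from -0.10 to 1.97 and *Tssk6* from -0.23 to 1.89 (both lowest without *Btg1*-/- replicate 2). Signals under 3 lie near background, and 2 arrays a group limit all of the above.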

Other observations

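Called genes that belong to no list above were named after their values had been seen. On the higher side, *Manba* and *Gaa*, which digest mannose and glycogen chains in lysosomes, measured 7.62 and 7.66 in *Btg1*-/- MEFs against 6.60 and 6.68 in WT cells and 10.65 and 10.51 in *Btg1*-/- MEFs against 10.08 and 9.92 in WT MEFs. *Ctsh*, a lysosomal protease, rose by 0.78. *Prnp*, the prion protein gene, rose by 0.62 (standard error 0.07, adjusted p = 0.016 from limma), and *Tgm2*, which cross-links matrix proteins, by 0.95. *Nnmt*, which methylates nicotinamide, measured 9.99 and 9.87 in *Btg1*-/- MEFs and 9.03 and 9.05 in WT MEFs, with no overlap.
On the lower side, *Ncl* and *Nhp2*, which act in the nucleolus on ribosomal RNA, measured 9.35 and 9.79 in *Btg1*-/- MEFs against 10.40 and 10.43 in WT MEFs, and 8.17 and 7.88 in *Btg1*-/- MEFs against 9.12 and 8.84 in WT MEFs. *Exosc2*, a subunit of the RNA exosome, and *Lsm5*, which binds the ends of decaying mRNAs, fell by 0.76 and 0.59 on the log2 scale. *Tfrc*, the transferrin receptor, measured 8.96 and 9.11 in knockout cells, against 9.97 and 9.95 in WT cells (adjusted p = 0.016 from limma). *Hmgn2*, a chromatin protein, fell by 0.78 on the log2 scale and *Tmpo*, a protein of the nuclear lamina, by 0.77.
Replicates within a genotype also differed. *Tfap2b* and *Sostdc1* measured 6.09 and 7.45 on WT replicate 2 and at most 2.67 and 4.08 on the other untreated arrays. *Prl2c3*, a proliferin gene, measured 7.32 and 9.30 in *Btg1*-/- MEFs and 4.34 and 6.67 in WT MEFs, so that each replicate 2 lay well above its replicate 1. *Col10a1*, the collagen of growing cartilage, measured 6.35 and 2.38 in *Btg1*-/- MEFs and 5.35 and 4.40 in WT MEFs.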
